A study of Mus musculus with 6 samples.

Results

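The genes described here are the microRNA (miRNA) genes of the mouse genome, read for binding of the transcription factor c-Myc in 3 mouse lung cancer lines, PB115, PB119 and PB120. All 1228 genes that the RefSeq gene table of GRCm38.p6 types as miRNA on chromosomes 1-19, X and Y were taken, with Mir17hg, the host transcript of the miR-17-92 cluster, which made 1229 members of 49943 genes in the table. Binding was mapped by chromatin immunoprecipitation and sequencing (ChIP-seq) from 20000000 formaldehyde-fixed cells per ChIP, with the c-MYC antibody D3N8F and 1 input library (sonicated chromatin without antibody) per line. The groups are the 3 lines themselves, each with 1 ChIP and 1 input library, and no treatment is named. The genotype, driver lesion and tumour type of the lines were not stated in the labels. A member was called bound in a line when the summit (the highest point) of a peak on that line's list lay within 1000 bp of either end of the gene, and a second count used 5000 bp. Where 3 values are given without names they stand for PB115, PB119 and PB120 in that order.

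miRNAs are short RNAs cut from hairpins in longer transcripts, by Drosha with Dgcr8 in the nucleus and by Dicer in the cytoplasm, and loaded on Argonaute proteins, where the seed (bases 2 to 8) pairs with target messenger RNAs. Many lie inside protein-coding genes and share their promoter, and others form clusters with a promoter of their own, often well upstream of the hairpins. c-Myc binds DNA as a dimer with Max, with a preference for the sequence CACGTG (the E-box), and is known from human and mouse tumour cells for raising the miR-17-92 cluster and for lowering let-7, miR-15/16, miR-29, miR-34 and other families.

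The mature miRNAs on which the results turn are shown first, 5′ to 3′ from RefSeq (GRCm38.p6), with the seed in capitals. A hairpin was found in the sequence table for 1005 of the 1228 miRNA genes. The first set is the miR-17-92 cluster on chromosome 14 and its relative miR-106b-25 on chromosome 5, which have the seeds AAAGUGC and AUUGCAC in common, while those of miR-18a and miR-19 occur in the first cluster alone.

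miR-17-5p: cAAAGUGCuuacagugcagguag
miR-20a-5p: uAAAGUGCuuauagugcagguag
miR-106b-5p: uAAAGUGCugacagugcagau
miR-93-5p: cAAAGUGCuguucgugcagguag
miR-18a-5p: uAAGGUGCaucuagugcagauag
miR-19a-3p: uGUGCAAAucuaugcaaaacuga
miR-19b-3p: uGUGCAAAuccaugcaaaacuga
miR-92a-3p: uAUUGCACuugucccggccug
miR-25-3p: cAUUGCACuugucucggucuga

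The second set holds miRNAs with a summit within 1000 bp that the lines shared or did not share, with pairs of 1 seed placed together. The pairs miR-132 and miR-212, miR-193a and miR-193b, and miR-148a and miR-148b each share a seed, and the last 2 pairs come from separate loci.

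let-7i-5p: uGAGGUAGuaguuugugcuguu
miR-132-3p: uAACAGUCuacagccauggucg
miR-212-3p: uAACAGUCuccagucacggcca
miR-193a-3p: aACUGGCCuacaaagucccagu
miR-193b-3p: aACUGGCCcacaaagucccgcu
miR-148a-3p: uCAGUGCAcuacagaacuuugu
miR-148b-3p: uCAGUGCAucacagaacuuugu
miR-22-3p: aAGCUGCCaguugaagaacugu
miR-210-3p: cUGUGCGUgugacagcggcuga
miR-191-5p: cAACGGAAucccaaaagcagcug
miR-21a-5p: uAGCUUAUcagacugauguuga

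The third set is genomic: the 250 bases before the annotated start (RefSeq, GRCm38.p6) of 2 coding genes next to miRNAs bound in all 3 lines, with the E-box in capitals, and of Mir17hg, with the letters of miR-20a-5p in capitals. They are Bcl7c by Mir762 (chr7:127708767-127709016, minus strand), Dnajb9 by Mir5627 (chr12:44210069-44210318, minus strand) and Mir17hg (chr14:115044140-115044389, plus strand).

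Bcl7c: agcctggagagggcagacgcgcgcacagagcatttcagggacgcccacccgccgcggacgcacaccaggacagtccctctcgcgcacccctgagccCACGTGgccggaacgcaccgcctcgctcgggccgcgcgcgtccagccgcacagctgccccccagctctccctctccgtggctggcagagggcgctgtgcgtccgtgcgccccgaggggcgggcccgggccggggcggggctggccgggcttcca
Dnajb9: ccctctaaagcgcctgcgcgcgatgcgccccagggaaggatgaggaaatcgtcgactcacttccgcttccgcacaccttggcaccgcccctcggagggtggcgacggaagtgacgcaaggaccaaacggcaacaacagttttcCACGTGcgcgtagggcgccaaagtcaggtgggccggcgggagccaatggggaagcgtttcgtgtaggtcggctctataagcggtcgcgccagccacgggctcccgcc
Mir17hg: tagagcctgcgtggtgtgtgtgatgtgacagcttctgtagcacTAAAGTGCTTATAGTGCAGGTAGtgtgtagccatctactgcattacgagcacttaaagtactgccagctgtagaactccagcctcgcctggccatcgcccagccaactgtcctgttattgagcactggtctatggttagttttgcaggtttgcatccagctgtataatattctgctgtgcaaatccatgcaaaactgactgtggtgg

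The 3 ChIP libraries held 40494386, 40726886 and 32299364 tags per the file headers, and the lists held 7830, 13527 and 5168 peaks. Each peak has a fold, the ratio of ChIP pileup to local input background after adding 1 to each, and the median folds of the lists were 9.59, 9.80 and 8.96. ChIP fragments at a summit were recovered from the pileup and are given as counts, or per 10000000 ChIP tags (10 M) with an exact Poisson 95% interval that covers counting error only. With 1 ChIP library per line there is no replicate error, so no difference between lines was tested and no p-value is given. In PB120, chromosome 8 held 8.20% of the peaks, against 5.12% in PB115 and 5.20% in PB119, with a median local background of 3.78 against 2.58 on its other chromosomes. Of the 56 miRNA genes on chromosome 8, 5 (8.93%), 11 (19.6%) and 6 (10.7%) were bound within 1000 bp. Over all members the shares were 5.45%, 8.38% and 3.5%, so the share on chromosome 8 was higher in all 3 lines. This was not particular to chromosome 8, since chromosome 11 also had higher shares, at 14.8%, 21.6% and 6.82%.

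Within 1000 bp, 67 (5.45%), 103 (8.38%) and 43 (3.5%) of the members were bound in the 3 lines. Over all genes of the table the same rule called 12.6%, 18.9% and 8.76%, so a smaller share of miRNA genes than of all genes was bound in each line. Protein-coding genes were bound in 23.6%, 35.3% and 16.4% of cases and long noncoding RNA (lncRNA) genes in 6.49%, 10.4% and 4.42%. A miRNA gene is only a hairpin long, so its ends nearly coincide, and the 3630 other genes of 200 bp or less are the closest match in length. These were bound in 3.64%, 5.81% and 3.44% of cases, below the miRNA genes in PB115 and PB119 and close to them in PB120.

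Within 5000 bp the counts rose to 165 (13.4%), 222 (18.1%) and 125 (10.2%), against 17.3%, 25.0% and 12.3% of all genes and 9.67%, 12.6% and 8.04% of the other short genes. The wider window thus brought miRNA genes nearer to the share over all genes. Within 50000 bp, 48.8%, 58.4% and 38.8% of miRNA genes had a summit, close to the 51.96%, 63.3% and 41.9% of coding genes.

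**Figure D1:**
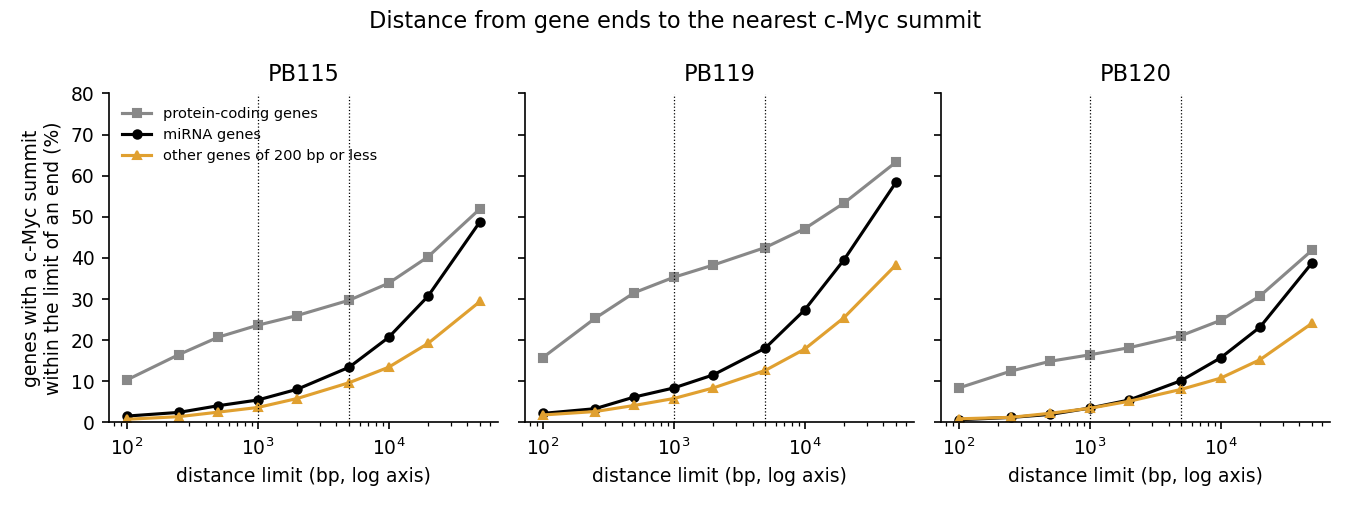
Share of genes (vertical axis, %) with a c-Myc summit within a given distance of either end (horizontal axis, bp, log scale) in each line, for miRNA genes (circles), protein-coding genes (squares) and other genes of 200 bp or less (triangles); dotted lines stand at 1000 and 5000 bp. Coding genes lie far above miRNA genes near their ends, and the 2 curves approach each other at 50000 bp.

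The summits of bound members lay at medians of 303, 348 and 407 bp from the nearer end. They lay upstream of the hairpin more often than downstream, at 41, 62 and 26 members against 18, 26 and 12. A further 4, 7 and 4 had the summit inside the gene, and 4, 8 and 1 had no strand in the tables. The nearest were Mir7237 in Banp, 3 bp from the summit in PB115, Mir5620 in Clcn4, 4 bp in PB115, and Mirlet7i, Mir5131 and Mir7672, each 6 bp in PB119. Peaks at bound members had a median fold of 10.4, 12.04 and 9.32, slightly above the medians of the whole lists.

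The 3 lines differed mainly by nesting. All 67 members bound in PB115 were also bound in PB119, and 42 of the 43 bound in PB120 were (97.7%). Over all genes the same shares were 98.9% and 97.1%, so the nesting was that of the whole lists. A core of 37 members (3.01%, against 7.63% of all genes) was bound in all 3 lines. Beyond it, 30 were shared by PB115 with PB119, 5 were shared by PB119 with PB120, and 31 were bound in PB119 alone, 1 in PB120 alone and none in PB115 alone. Of the members bound in PB115, 55.2% were bound in PB120, near the 61.1% over all genes bound in PB115. The longer list of PB119 moves with its count: when the 5168 peaks of lowest p were taken from each list, 48, 56 and 43 members were bound and 28 in all 3 lines.

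At the 37 shared members the medians were 15.6, 17.7 and 13.9 fragments per 10 M tags. The 3810 genes of all kinds bound in every line gave 15.1, 17.9 and 13.0, so the order of the lines at miRNA genes was that of the whole data set. PB119 exceeded PB115 at 33 of the 37, and PB120 exceeded PB115 at 11. Over the 3810 genes these counts were 3180 and 1333.

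Since members of a cluster share peaks, members at most 10000 bp apart were joined into 943 loci, of which 100 held several members. Of these loci 64, 95 and 40 were bound, and 35 in all 3 lines.

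Most bound miRNA genes lay in or beside protein-coding genes. Of the 1229 members, 832 lay inside a coding gene, 90 outside but within 5000 bp of one, 134 away from coding genes but in or within 5000 bp of a lncRNA gene, and 173 elsewhere. Inside coding genes, 44 (5.29%), 71 (8.53%) and 26 (3.13%) were bound. Just outside coding genes the share was higher, at 17 (18.9%), 25 (27.8%) and 15 (16.7%). This share depends on how near is defined, and with 1000 in place of 5000 bp from a coding gene it was 20 of 30 (66.7%) in PB119. Away from coding genes, 3, 4 and 1 were bound by lncRNA genes and 3, 3 and 1 elsewhere.

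The summit that called a member bound was itself within 1000 bp of the end of a coding gene for 43 of 67 members (64.2%), 62 of 103 (60.2%) and 31 of 43 (72.1%). At such members a summit by the miRNA and a summit by the coding gene are 1 and the same peak, and the data do not assign it to either transcript.

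**Figure D2:**
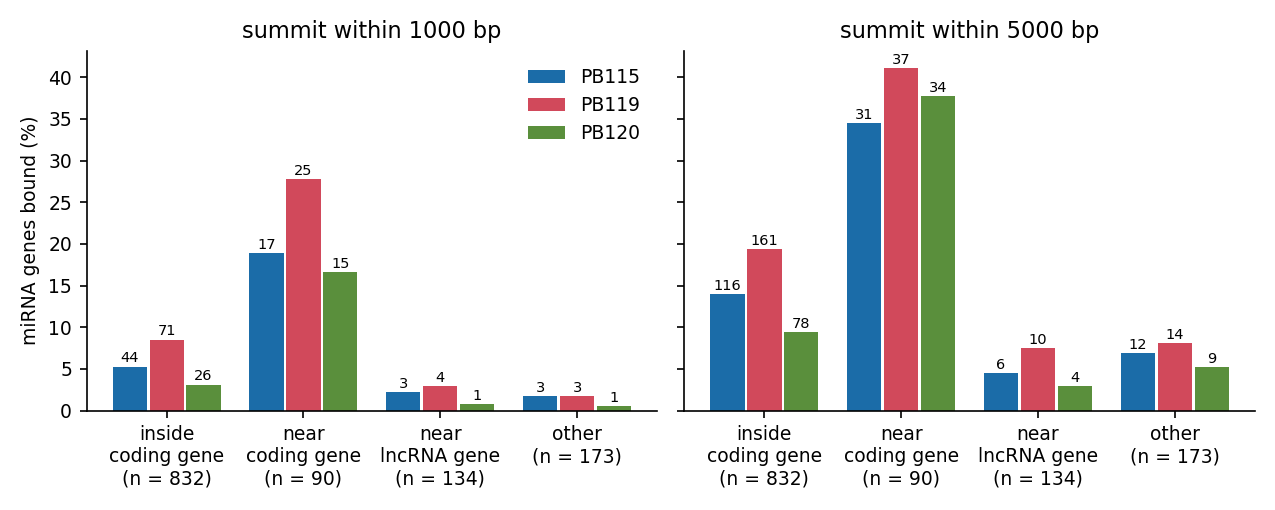
Share of miRNA genes bound (vertical axis, %) by where they lie, in PB115, PB119 and PB120, with a summit within 1000 bp (left) or 5000 bp (right); the number over each bar is the count of bound genes. Genes just outside coding genes had the highest share in every line, at 18.9%, 27.8% and 16.7% within 1000 bp, and all 7 members of the miR-17-92 locus enter the last place in the right panel through 1 peak per line.

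The miR-17-92 cluster, known as oncomiR-1, was bound upstream in all 3 lines. Mir17, Mir18, Mir19a, Mir20a, Mir19b-1, Mir92-1 and Mir17hg span chr14:115043671-115046728 on the plus strand (GRCm38), away from coding genes. No member had a summit within 1000 bp and all 7 had one within 5000 bp, so this locus is bound or not according to the window. The main summit lay 1195, 1199 and 1348 bp before the start of Mir17.

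The peak at miR-17-92 held 171 fragments (fold 30.2), 167 (fold 22.4) and 68 (fold 14.02). Per 10 M tags these were 42.2 (36.1 to 49.1), 41.0 (35.0 to 47.7) and 21.1 (16.3 to 26.7). The intervals of PB115 and PB119 overlapped, and that of PB120 lay below both. The fold stood at the percentiles 99.3, 93.4 and 88.5 of the lists, the highest mean of any miRNA locus away from coding genes.

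In each line 2 weaker peaks lay further upstream of miR-17-92, with summits 2116 to 3252 bp before Mir17. PB115 had 45 fragments at each of them, PB119 had 64 and 33, and PB120 had 33 and 28. The annotated start of Mir17hg lies inside the cluster, and the window printed above for it contains miR-20a itself, from base 44 counted from 1 at its 5′ end. From that annotated start the main summits lay 1914, 1918 and 2067 bp upstream.

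**Figure D3:**
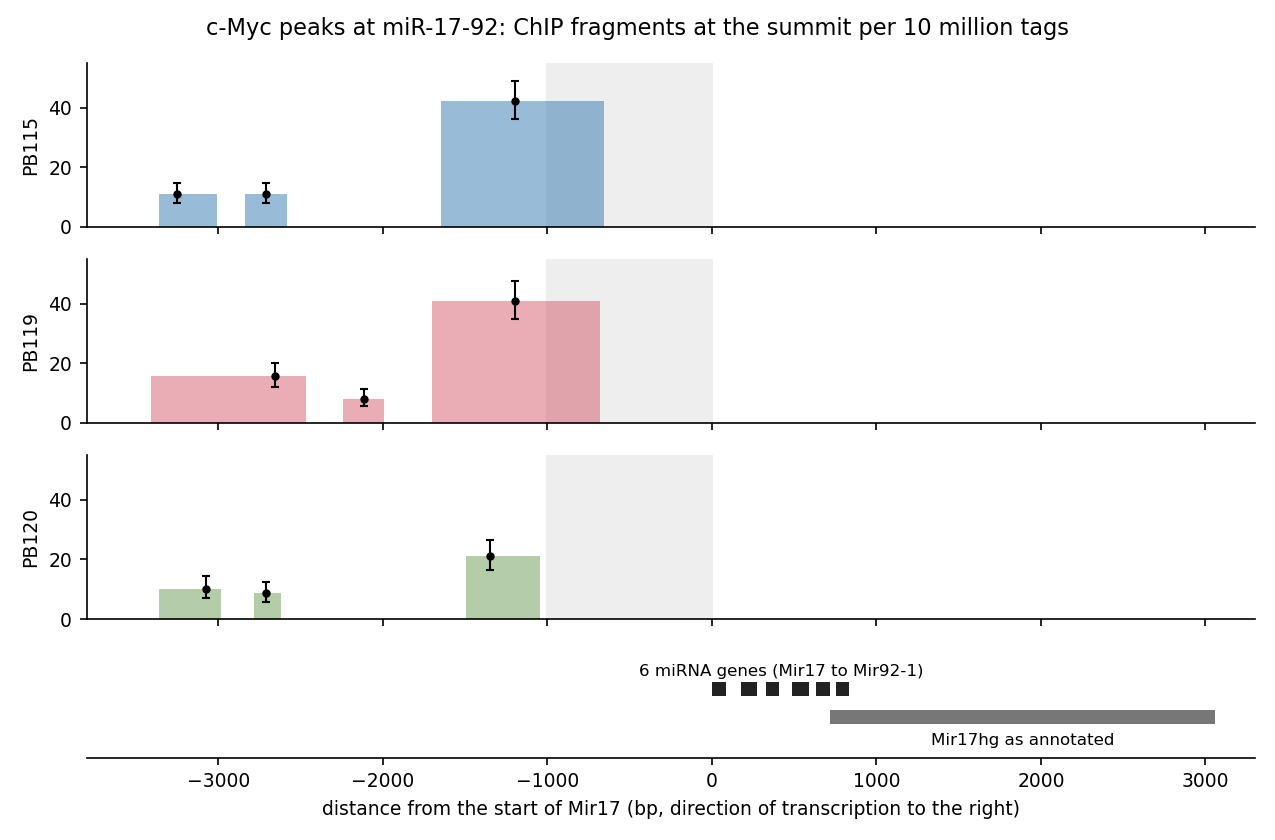
Peaks of each line (boxes spanning the peak) around the miR-17-92 cluster, with height and point at the ChIP fragments at the summit per 10 M tags and an exact Poisson 95% interval; the horizontal axis is the distance in bp from the start of Mir17, and the shaded strip is the 1000 bp before it. The tall peak lies just outside the strip at its summit, at 42.2, 41.0 and 21.1, and 2 lower peaks lie further upstream in each line.

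The relative cluster miR-106b-25 lies within Mcm7, a subunit of the replicative helicase, on the minus strand of chromosome 5 (Mir106b at chr5:138165737-138165818). Its 3 genes counted as bound within 5000 bp in all 3 lines, but through a summit downstream of the cluster at the start of the neighbour Cops6, with folds of 5.89, 11.6 and 9.16. The peak near the start of Mcm7 was far stronger and lay just beyond the window, 5239, 5204 and 5272 bp upstream of Mir106b. It held 177 fragments (fold 32.9), 198 (fold 44.9) and 108 (fold 26.7), or 43.7 (37.5 to 50.6), 48.6 (42.1 to 55.9) and 33.4 (27.4 to 40.4) per 10 M tags. The gene Ap4m1 has an end within 1000 bp of the same summits. The 6 genes of miR-106a-363 on chromosome X had no summit within 5000 bp in any line, and the nearest to Mir106a lay 245750, 245663 and 15839048 bp away.

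Among let-7 genes, whose mature miRNAs are known to repress Ras, Hmga2 and Myc messenger RNAs, 1 of 12 was bound in each line. The shares over all miRNA genes were 5.45%, 8.38% and 3.5%. The bound let-7 gene was Mirlet7i (chr10:122985640-122985724, minus strand). Its peak held 69, 84 and 43 fragments, with folds of 14.1, 19.3 and 10.1 and summits 763, 685 and 786 bp upstream. Per 10 M tags these were 17.0 (13.3 to 21.6), 20.6 (16.5 to 25.5) and 13.3 (9.63 to 17.9), and the 3 intervals overlapped. PB119 had a second peak, with 70 fragments and its summit 6 bp from the hairpin.

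Other let-7 genes had summits beyond 5000 bp. The cluster of Mirlet7a-1, Mirlet7f-1 and Mirlet7d had a peak 7785 to 7842 bp upstream of Mirlet7a-1 in all 3 lines, with folds of 18.4, 30.4 and 8.35 and 88, 132 and 40 fragments. Further upstream PB115 had a second peak at 8541 bp with 52 fragments (fold 10.5), and PB120 had one at 8488 bp with 50 fragments (fold 10.4), higher there than its nearer peak. Mirlet7c-2 and Mirlet7b had one 7773 and 7732 bp upstream of Mirlet7c-2 in PB115 and PB119, with folds of 7.26 and 8.74. Mirlet7g, in Wdr82, had one at the start of its host 7620 and 7633 bp upstream in the same 2 lines, with folds of 12.5 and 15.1. Mirlet7f-2 and Mir98 lie in Huwe1, whose start had a summit in every line, at folds of 12.4, 13.0 and 6.93. For the p53-induced miR-34 family none of 3 genes was bound at either window, the nearest summit being 19168 bp from Mir34a in PB119.

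The other families that have been reported as lowered by MYC differed in their counts, which stand beside shares over all miRNA genes in PB119 of 8.38% within 1000 bp and 18.1% within 5000 bp. In the miR-15/16 family, which restrains cyclins, 2 of 8 genes were bound within 1000 bp, Mir195a and Mir497 in PB119 alone, at a peak of 29 fragments (fold 7.71). Within 5000 bp 2, 6 and 2 of the 8 were bound in PB115, PB119 and PB120. In PB115 and PB120 these were Mir195a and Mir497, through a summit downstream by the coding genes 0610010K14Rik and Rnasek (folds 9.58 and 10.3). PB119 had a peak there too (fold 15.4). Mir15b and Mir16-2 were reached in PB119 alone, by a summit of fold 8.86 that lay 3672 bp upstream of Mir15b, and Mir322 and Mir503 in PB119 alone, by a summit of fold 6.999. Mir15a and Mir16-1 lie in the lncRNA gene Dleu2, whose start had a summit in PB119 alone, at a fold of 14.8.

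None of 4 miR-29 genes and none of 6 miR-30 genes had a summit within 5000 bp. Of 3 miR-26 genes Mir26b alone had one within 5000 bp, in all 3 lines. Mir30c-1 and Mir30e lie in Nfyc, whose start had a summit in every line, at folds of 12.5, 16.3 and 10.8. The start of Ctdsp2, the host of Mir26a-2, also had one in every line, at folds of 8.29, 11.4 and 8.56. That of Ctdspl, the host of Mir26a-1, had one in PB119 alone (fold 6.84). Of the 7 genes of the miR-23/27/24 clusters none was bound within 1000 bp, and within 5000 bp 0, 1 and 3 were. The 3 in PB120 were Mir23a, Mir27a and Mir24-2, at a summit of fold 5.35. That summit lay 1320 bp downstream of Mir24-2 and by the gene Zswim4. The 1 in PB119 was Mir23a, 4943 bp from its summit. Beyond 5000 bp, a stronger peak lay 6829, 6817 and 6917 bp upstream of Mir23a in the 3 lines. It held 84, 97 and 57 fragments, with folds of 9.98, 17.97 and 6.74, the lowest being in PB120. The counts of 0, 1 and 3 thus depend on the window.

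Of 7 further miRNAs reported as lowered by MYC, Mir22 was bound in PB115 and PB119, with 53 and 50 fragments and folds of 10.0 and 10.5, its summits 686 and 653 bp upstream. In PB120 the nearest summit to Mir22 lay 2439 bp upstream, with a fold of 6.77. PB119 had a further summit 2215 bp upstream, with a fold of 7.47. Both of these lay within 1000 bp of the start of its lncRNA host Mir22hg. Mir148a was bound in PB119 alone, with 31 fragments and a fold of 8.70, and Mir150 had summits within 5000 bp in all 3 lines, 2749, 1513 and 2713 bp downstream.

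Of 10 further miRNAs reported as raised by MYC, 3 were bound within 1000 bp and in PB119 alone, where the share over all miRNA genes was 8.38%. Mir130b and Mir301b share a peak of 49 fragments (fold 12.2), which in PB119 also lies at an end of the coding gene 2610318N02Rik. Mir378a, in Ppargc1b, had a summit of 32 fragments (fold 8.72) 998 bp away in PB119. Within 5000 bp PB119 had a stronger peak by it (fold 22.6), and in PB115 a peak of fold 12.2 lay 2418 bp away.

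The miR-200 family, which maintains epithelial identity, had no summit within 1000 bp at any of its 5 genes. Mir141 had one within 5000 bp in PB119, 4747 bp downstream, and the nearest in PB115 and PB120 lay 5583 and 5711 bp downstream. Among 12 neuroendocrine and neuronal miRNAs, 2 were bound within 1000 bp in each line, against 5.45%, 8.38% and 3.5% of all miRNA genes. No other gene of this list had a summit within 5000 bp in any line. Mir7-1 lies in Hnrnpk, whose start had a summit in every line, at folds of 11.8, 12.7 and 9.78. The bound pair was Mir132 and Mir212, known to be induced by CREB. In all 3 lines the pair was bound by 1 peak between and over the hairpins. It held 34, 36 and 26 fragments, with folds of 7.75, 10.2 and 5.51 at the percentiles 23.3, 53.4 and 4.50 of the lists.

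Of 21 other miRNAs studied in cancer, 3, 4 and 1 were bound within 1000 bp, against 5.45%, 8.38% and 3.5% of all miRNA genes. Mir191, in Dalrd3, was bound in all 3 lines with 64, 72 and 42 fragments (folds 14.05, 17.5 and 11.0). Its summits lay 893, 857 and 820 bp upstream, near the start of the neighbour Ndufaf3. Mir425, of the same transcript, had the same summits beyond 1000 bp, at 1351, 1315 and 1278 bp. Mir210, the main hypoxia-induced miRNA, was bound in PB115 and PB119 with 59 and 66 fragments (folds 12.9 and 15.6), and in PB120 the nearest summit lay 7035 bp away. Mir320, known to be made without Drosha and lying by the RNA polymerase III gene Polr3d, had 72 and 69 fragments in the same 2 lines (folds 18.4 and 17.8). Mir21a, the widely raised oncogenic miRNA in Vmp1, was bound in PB119 alone, by a summit 18 bp upstream of the hairpin with 54 fragments (fold 8.56), and the nearest summits in PB115 and PB120 lay 39208 and 39216 bp away. Mir146b was reached within 5000 bp in PB119 and PB120.

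The 12 loci with the strongest peaks within 1000 bp in all 3 lines all lay inside a coding gene or within 5000 bp of one. Ranked by the mean percentile of the fold, the first was Mir1893 in Epc1, a subunit of the NuA4 acetyltransferase complex. Its folds were 23.8, 34.5 and 15.4. Mir5627 by Dnajb9, a chaperone of the endoplasmic reticulum, followed with 20.6, 26.0 and 17.3 and fragments of 89, 87 and 68. Mir1900 in Icam5 (19.0, 30.9 and 14.5), Mir688 by Atp5g2, a subunit of the ATP synthase (17.0, 22.9 and 16.7), and Mir762 in Bcl7c (24.7, 31.7 and 11.9) came next.

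Further down were Mir1945 by the translation termination factor gene Gspt1 (17.9, 23.1 and 14.4), Mir707 in Akt1s1 (12.3, 24.5 and 19.7), Mir345 by Slc25a29 (20.0, 20.8 and 10.8) and Mir219a-1 with Mir219c by the Polycomb gene Ring1 (13.2, 18.7 and 14.1). Mir3077 in Sap18 had folds of 16.03, 18.3 and 11.4, and Mir7071 in Heatr3 15.03, 17.98 and 11.7. Mir1191b in Nfic, a gene for a transcription factor of the nuclear factor I family, had 36.9, 56.1 and 9.11. PB119 had the highest fold at all 12 of these loci and PB120 the lowest at 10. A like order held in fragments per 10 M tags over the 3810 genes of all kinds bound in every line. There PB119 exceeded PB115 at 3180 genes, and PB120 exceeded PB119 at 785. At Mir1191b the fragments were nearer to each other, with 156, 188 and 100, or 38.5 (32.7 to 45.1), 46.2 (39.8 to 53.3) and 31.0 (25.2 to 37.7) per 10 M tags.

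**Figure D4:**
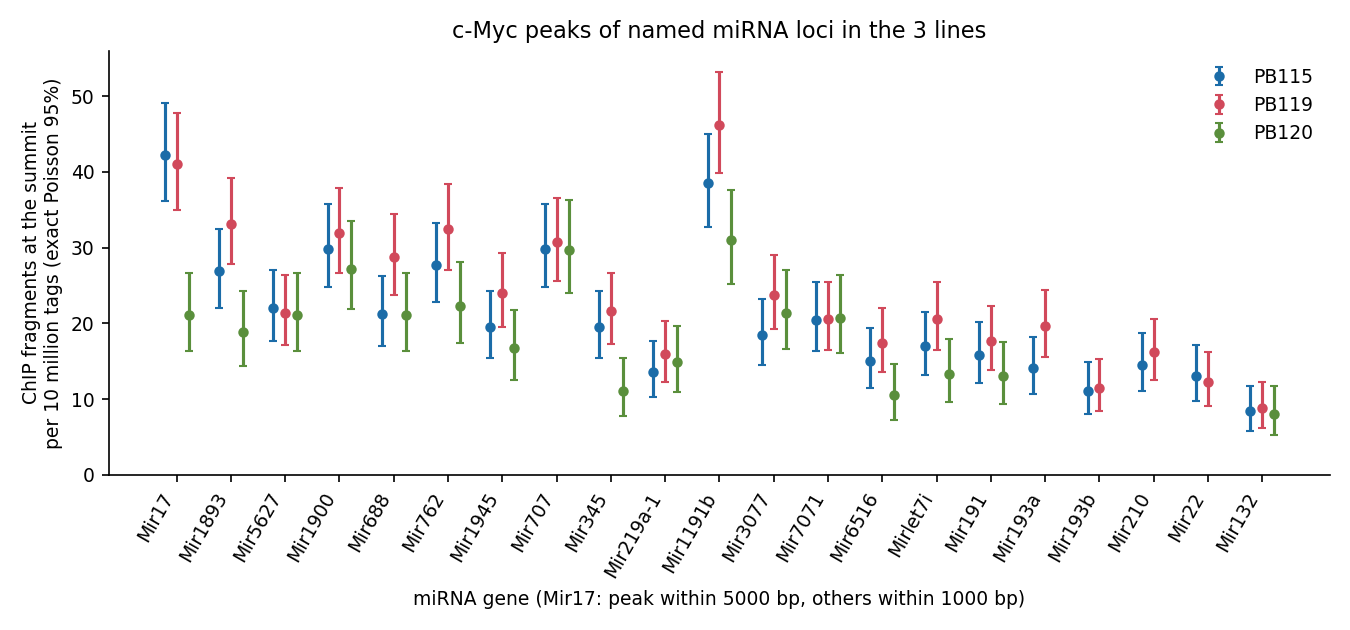
ChIP fragments at the summit per 10 M tags (vertical axis) with exact Poisson 95% intervals at named miRNA loci (horizontal axis) in PB115, PB119 and PB120; the window is 5000 bp for Mir17 and 1000 bp for all others, and a missing point means no listed summit within it. Mir17, at 42.2, 41.0 and 21.1, and Mir1191b, at 38.5, 46.2 and 31.0, stand highest, and Mir193a, Mir193b, Mir210 and Mir22 have no point for PB120 (at Mir22 its nearest summit lay 2439 bp away, with 37 fragments).

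Away from coding genes, few miRNA loci had a summit within 1000 bp. After miR-17-92 the highest fold percentile within 5000 bp was that of Mir6516 in the lncRNA gene Snhg20, bound within 1000 bp in all 3 lines with 61, 71 and 34 fragments (folds 10.9, 16.4 and 8.82). A stronger summit lay 4909, 4919 and 4968 bp upstream of it. Mir193a, whose seed is shared with Mir193b, was bound in PB115 and PB119 with 57 and 80 fragments (folds 11.6 and 23.0), and Mir193b, by the lncRNA gene Gm32817, in the same lines with 45 and 47 (folds 11.7 and 13.8). Neither had a listed summit within 5000 bp in PB120. The peaks called within 1000 bp of Mir6516 and Mir193b also lay within 1000 bp of the start of their lncRNA hosts. They are thus shared with those genes.

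Mir1949, by Snhg4, had summits 1109, 1117 and 1144 bp away with folds of 18.002, 17.4 and 8.72, and Mir3089 had them 3058, 3058 and 3059 bp upstream with folds of 16.7, 24.6 and 7.46. Mir129-1 and Mir7688 had a summit in PB119 alone, with folds of 9.84 and 9.55, and Mir1969 in PB115 and PB119, with 9.62 and 8.70. PB120 had the lowest fold at miR-17-92, Mirlet7i, Mir6516, Mir1949 and Mir3089, the named loci of this group with a summit in all 3 lines. At Mir5112, picked out after its values were seen, PB115 had the lowest, with folds of 6.46, 9.65 and 7.74. Over the 3810 genes of all kinds bound in every line, PB120 also had the lowest median of fragments per 10 M tags.

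The loci bound in a single line had moderate folds. Those with the highest folds bound in PB119 alone were Mir6538 in Rnf144a (12.4), Mir130b with Mir301b (12.2), Mir8112 in Krcc1 (11.5), Mir1904 in Pde4d (11.4) and Mir574 in Fam114a1 (10.5). Mir148b in Copz1 was the 1 member bound in PB120 alone, with 27 fragments and a fold of 7.23, 860 bp downstream of the hairpin, while Mir148a, which has the same seed, was bound in PB119 alone. Mir199a-1 in Dnm2, which with Mir199a-2 encodes miR-199a, went against the usual order, with folds of 7.26, 11.0 and 13.4 and 40, 39 and 45 fragments in PB115, PB119 and PB120. It was picked out after its values were seen.

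The 1000 bp limit splits some near-equal cases. Just inside it were Mir195a at 999 bp, Mir378a at 998 bp and Mir1668 at 985 bp, all in PB119. Just outside were Mir92b at 1055 bp in PB115 and Mir1901 at 1069 bp and Mir6973b at 1087 bp in PB119. Mir92b, with the seed of miR-92a and miR-25, was bound in PB119 at 405 bp with a fold of 6.35.

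The E-box CACGTG, which reads the same on both strands, was searched in 32851 RefSeq promoter windows, each from 250 bases before to 50 after an annotated start. It was present in 7.15% of all windows, and in 19.9%, 17.1% and 20.9% of those with a summit in PB115, PB119 and PB120. Of 96 windows that held the summit of a miRNA gene bound within 5000 bp, some of them overlapping, 13 (13.5%) had it. The related letters CACGCG, searched with their reverse CGCGTG, stood in 9.27% of all windows, in 32.4%, 29.7% and 33.3% of those with a summit and in 30 of the 96 (31.25%). The 2 searches share no site, since the letters differ.

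The 2 coding-gene windows printed above were chosen because they hold both an E-box and summits, so the distances between them only describe these windows. In the Bcl7c window by Mir762 it begins at base 97, and the summits were 14, 16 and 0 bp from its first base. In the Dnajb9 window by Mir5627 it begins at base 144, with summits 11, 28 and 6 bp away. The window of Eif4e by Mir1956, a gene also bound in all 3 lines, has E-boxes at bases 23 and 187, and only PB120 had a summit in it, 24 bp from the nearer one. These matches are descriptions of the letters and not mapped sites.

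Starts of host genes had a c-Myc summit more often than the hairpins inside them. A host with a listed start on the same strand was found for 505 miRNA genes in coding genes, and the start of the host was within 1000 bp of a summit for 191 of them (37.8%), 292 (57.8%) and 150 (29.7%). For 174, 260 and 137 of these the miRNA gene itself had no summit within 1000 bp. Counted once each, 180, 275 and 138 of 470 coding hosts had a bound start (38.3%, 58.5% and 29.4%), against 25.8%, 37.95% and 17.6% of all 17492 coding genes with a listed start. Hosts thus had a higher share in each line, and no test of that difference was made. In 130 cases (25.7%) the start of the host was bound in all 3 lines.

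For lncRNA hosts the share of bound starts was 9, 11 and 6 of 54 hosts (16.7%, 20.4% and 11.1%), against 6.49%, 10.3% and 4.47% of 9533 lncRNA genes. Among hosts with a bound start in all 3 lines and no summit within 5000 bp of the miRNA, chosen after their values were seen, were the nucleolin gene Ncl (Gm24148, folds 34.2, 46.6 and 23.4), the translation initiation factor gene Eif3b (Mir7038, 38.6, 44.5 and 11.2) and the splicing regulator gene Ptbp1 (Mir6910, 26.4, 25.5 and 18.7).

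**Figure D5:**
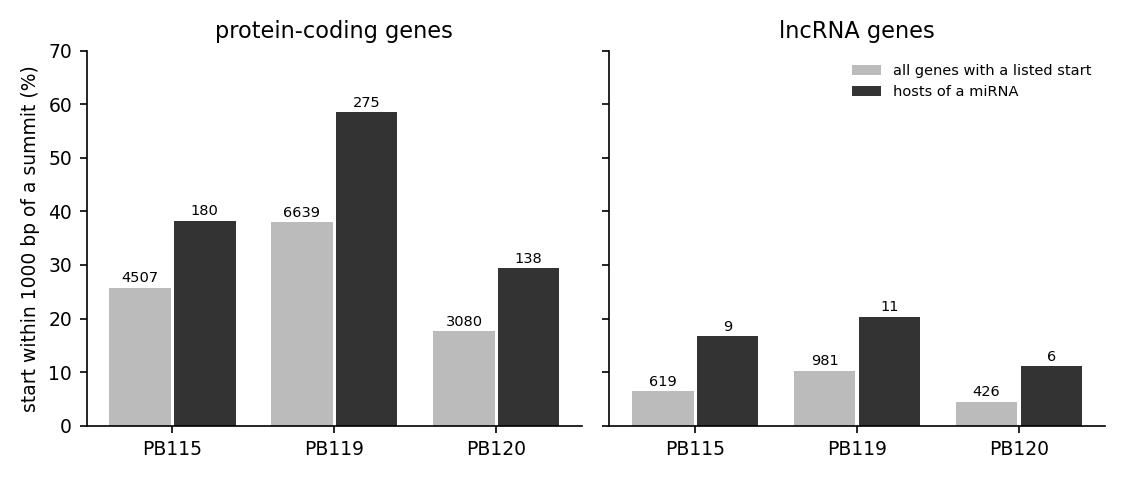
Share of genes whose annotated start lay within 1000 bp of a c-Myc summit (vertical axis, %) in each line, for all protein-coding (left) or lncRNA genes (right) with a listed start (grey) and for those that host a miRNA on the same strand (black); numbers over the bars are counts of genes. Coding hosts stand at 38.3%, 58.5% and 29.4%, above all coding genes at 25.8%, 37.95% and 17.6%.

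The largest miRNA clusters had no summit at any member within 5000 bp in any line. These were the 72 genes in Sfmbt2 on chromosome 2, the 39 genes from Mir379 on in the imprinted region of chromosome 12, 19 genes on chromosome X, the 16 genes around Rtl1 on chromosome 12 and the 9 genes of the embryonic stem cell cluster Mir290a to Mir295. With 155 members in all, they weigh on the count of unbound genes but are only 5 of the 943 loci.

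Many genes that make and use miRNAs had a summit at an end. Of 28 such coding genes, 19 (67.9%), 22 (78.6%) and 11 (39.3%) were bound within 1000 bp, against 23.6%, 35.3% and 16.4% of all coding genes. In all 3 lines 9 (32.1%) were bound, against 14.4% of all coding genes. The list was chosen with earlier results of these data known, so these shares only describe its genes. Dgcr8, the partner of Drosha, had folds of 13.4, 28.7 and 9.84, and Drosha had 13.3 and 14.5 in PB115 and PB119 and no summit within 1000 bp in PB120.

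Xpo5, which exports hairpins from the nucleus, had folds of 11.9, 14.6 and 10.3, and its GTPase Ran had 13.0, 33.9 and 11.4. Dicer1 was bound in PB115 and PB119 (8.06 and 11.3), as was Ago2, the slicing Argonaute (12.3 and 13.99), while Ago1 was bound in PB119 and PB120 (11.2 and 10.3). Lin28b, which blocks let-7 maturation, was bound in PB119 alone, with a fold of 6.90 and 21 fragments. Dis3l2, Ago3, Ago4, Lin28a, Tnrc6a and Tarbp2 had no summit within 1000 bp in any line.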

How the data were processed

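The 6 libraries comprised 1 c-Myc ChIP and 1 input per line. Inputs were used here only as far as the authors had used them to call peaks. Reads were placed on mm10 (GRCm38), and MACS2, Bowtie and SAMtools were used, per the submitters' processing notes. No version was stated there for Bowtie or SAMtools. Per the file headers, each ChIP was called alone against the input of its line with MACS 2.1.0.20140616 at a p-value cutoff of 1e-10. The deposited pileup is a signal, namely summit coverage of the ChIP scaled by the authors to input depth. Undoing that scaling returned integers to a tolerance of 0.02 at 100% of peaks, which were taken as fragments. The deposited fold is a ratio over the local input background, and the deposited −log10 p-value was used for a stricter threshold. The deposited −log10 q-value was not used.

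Summits were compared with the gene ends of the RefSeq table (GRCm38.p6) in Python 3.11.15 with numpy 2.4.6, pandas 2.3.3 and scipy 1.17.1. The counting was tested on simulated peaks. Strands and starts came from the RefSeq sequence tables. The gene table gives ends and no exons, so exon or intron is not stated. The members, the miRNA lists and the list of processing genes were chosen with earlier results of these data known. Named were Mir17hg, bound list members, the 12 loci bound in all lines and the 10 away from coding genes with the highest mean fold percentile, up to 5 loci per line bound in that line alone, up to 3 within 100 bp of the limit on each side and the 5 nearest to a summit, and exceptions are marked. No test was made, since each line had 1 ChIP library.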

Additional observations from a re-analysis of the deposited data

How the results depend on the processing

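No paired analysis was possible because each line has 1 ChIP library and the labels carry no replicate numbers, and for the same reason no replicate could be left out. The window changed the counts most. At 5000 in place of 1000 bp the bound genes went to 165 in PB115, 222 in PB119 and 125 in PB120, the loci to 146, 196 and 104, and the genes bound in all 3 lines to 109. At PB119 the genes inside coding genes went to 161, by lncRNA genes to 10 and elsewhere to 14. At 500 bp PB120 kept 24 genes and 22 loci, and 23 genes were bound in all 3 lines. With p at 1e-20 or less, PB120 had 28 bound miRNA genes and 7 bound processing genes, and 24 miRNA genes were bound in all lines. With the same number of peaks per line (5168), PB119 had 56 genes and 52 loci. Leaving out PB120, 67 genes were bound in both other lines. Defining near as 1000 or 10000 bp moved the genes bound elsewhere in PB119 to 8 or 0, and those just outside coding genes to 20 of 30 (66.7%) or 27 of 109 (24.8%). Leaving out chromosome 8, an alternative chosen after seeing the data, gave 62, 92 and 37 genes. Chaining loci at 3000 or 50000 bp, counting peak overlap and taking the peak of highest −log10 p at miR-17-92 moved no count by more than 1.5 times. A member with no listed summit had no peak past the authors' cutoff, with the weakest listed peaks at 24, 19 and 21 fragments, and lower binding was not detectable in these lists.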

Other observations

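Member names were split by number after the data were seen. Of 654 miRNA genes numbered 1000 or above, 45 were bound within 1000 bp in PB115 (6.88%), 67 in PB119 (10.2%) and 29 in PB120 (4.43%). Of 527 genes with a number under 1000 or in the let-7 family, 20 (3.80%), 32 (6.07%) and 12 (2.28%) were. Most of the 155 members of the 5 large unbound clusters have numbers under 1000, so they lower the shares of this second group. Mir484, like Mir320 known to be made without Drosha, was bound in PB119 alone, by a summit 271 bp away near Marf1 with 50 fragments (fold 9.53). Mir145a, a smooth muscle miRNA, was bound in PB115 and PB119 with 40 and 44 fragments (folds 7.26 and 10.1).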
